A study of Gossypium hirsutum with 6 samples.

Results

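To describe where the mark of active genes stops short of the mark of repressed genes in cotton leaf chromatin, H3K4me3 peaks that lay beside an H3K27me3 domain without touching it were collected from the deposited peak lists. A bordering peak is an H3K4me3 peak of replicate 1 that was found again in a second list (repeated, sharing at least 1 bp), that shared no base with an H3K27me3 peak of either replicate, and that lay within 2000 bp of the edge of an H3K27me3 peak of replicate 1, called a domain here. On the 26 chromosomes, 1115 of the 69877 H3K4me3 peaks of replicate 1 met this rule, 530 of 33848 in the A subgenome and 585 of 36029 in the D subgenome. They were 3.08% (exact Clopper-Pearson 95% interval 2.90 to 3.26) of the 36238 repeated peaks free of H3K27me3, whereas 5.36% of all 59118 free replicate 1 peaks, repeated or not, lay as near to a domain. They were chosen by their positions in the 4 lists, that is by overlap and by distance to an edge, so their number and distances are descriptions, and of these only numbers and shares were tested, between the subgenomes, which the rule did not use.

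The lists come from ChIP-seq of leaves of Gossypium hirsutum TM-1, an upland cotton line whose nucleus holds the A and D subgenomes, each with 13 chromosomes. Plants were 20 days old and untreated, and chromatin was cut with micrococcal nuclease (MNase). There were 2 H3K4me3, 2 H3K27me3 and 2 input libraries, and the 4 lists of the antibody libraries were used here. The labels do not say that replicates came from separate plants. Trimethylation of lysine 4 of histone H3 is placed by COMPASS-like methyltransferases near the start of transcribed genes. Trimethylation of lysine 27 is placed by Polycomb repressive complex 2 over silenced genes, often across whole gene bodies. Genes on either side of the end of such a domain can thus be under opposite marks in the same tissue.

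Before any result, it has to be said that names and sample labels disagree for both replicate 2 lists. The list named for H3K4me3 belongs to the sample labelled H3K27me3 replicate 2, holds 42643 narrow peaks with a median width of 474 bp, and is called the narrow replicate 2 list. The list named for H3K27me3 belongs to the sample labelled H3K4me3 replicate 2, holds 24430 broader peaks with a median width of 1230.5 bp, and is called the broad replicate 2 list. The medians of replicate 1 were 495 bp for H3K4me3 and 1379 bp for H3K27me3. The rule follows the names, so the narrow list served as the repeat of H3K4me3 and the broad list as that of H3K27me3. Following the labels instead left 454 bordering peaks. By label, a repeated peak is one that overlaps the broad list, and a free peak touches neither a domain nor the narrow list. The broad list called again 91.0% of domains without a bordering peak and 89.9% of those with 1. Values by sample label below thus concern another set of peaks than the main ones, each lying on a peak of the broad list. The lists hold positions only, without heights or reads per peak. Library depth cannot be read from them, the study's read totals were not used here, and every interval below covers counting error only.

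Bordering peaks were fewer than after the H3K4me3 peaks were moved along their chromosomes. The repeated peaks were shifted by 20, 50, 100, 200 and 500 kb in each direction and the rule was applied again, which gave 10 shifted counts. In the A subgenome the 530 bordering peaks stood against a shifted mean of 730.5 (684 to 808), a ratio of 0.726. In the D subgenome the 585 peaks stood against 863.6 (820 to 913), a ratio of 0.677. Both subgenomes lay below the lowest of their shifted counts. As a share of the repeated free peaks, 2.96% (2.71 to 3.22) bordered a domain in A and 4.24% did so after shifting, and in D the shares were 3.19% (2.94 to 3.46) and 4.96%. The offsets are fixed, so these ratios carry no p-value.

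The ratio depended on the repeat in the narrow replicate 2 list and on nearness to the edge. Without that list, 3166 peaks met the rule and the ratio to shifted peaks was 0.987, with 1.08 in A and 0.917 in D. Within 1000 bp the ratio was 0.471, and within 4000 bp it was 0.847. When the replicate 2 lists were used alone, with peaks of the narrow list set against domains of the broad list, 1633 peaks bordered a domain and the ratio was 0.669.

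The distance profile showed at which distance repeated peaks became scarce. Repeated free peaks within 500 bp of an edge (0 to 499 bp) numbered 113, which is 0.305 of the shifted mean. Those at 1000 to 1999 bp numbered 743, or 0.925 of it, and those at 2000 to 3999 bp numbered 1470, or 1.01 of it. By subgenome these 3 ratios were 0.256, 0.980 and 1.13 in A and 0.347, 0.878 and 0.910 in D. At 2000 to 3999 bp repeated peaks thus exceeded the shifted mean in A and not in D. Farther out, at 4000 to 5999 bp, they exceeded it in both, at 1.19 in A and 1.03 in D. Repeated free peaks at any distance were 1.04 times the shifted mean in A and 1.05 times in D. Per kb of distance, both subgenomes together had 226 repeated peaks in the first 500 bp and 735 at 2000 to 3999 bp. Peaks found in replicate 1 alone ran the other way, with 1212 per kb in the first 500 bp and 658.5 per kb at 2000 to 3999 bp. The share of free peaks that were repeated was therefore 15.7% (13.1 to 18.6) within 500 bp, 45.6% at 1000 to 1999 bp and 59.7% at 4000 to 5999 bp. In the first 250 bp, 16 peaks were repeated and 133 were not in A, and 21 were repeated and 145 were not in D.

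**Figure D1:**
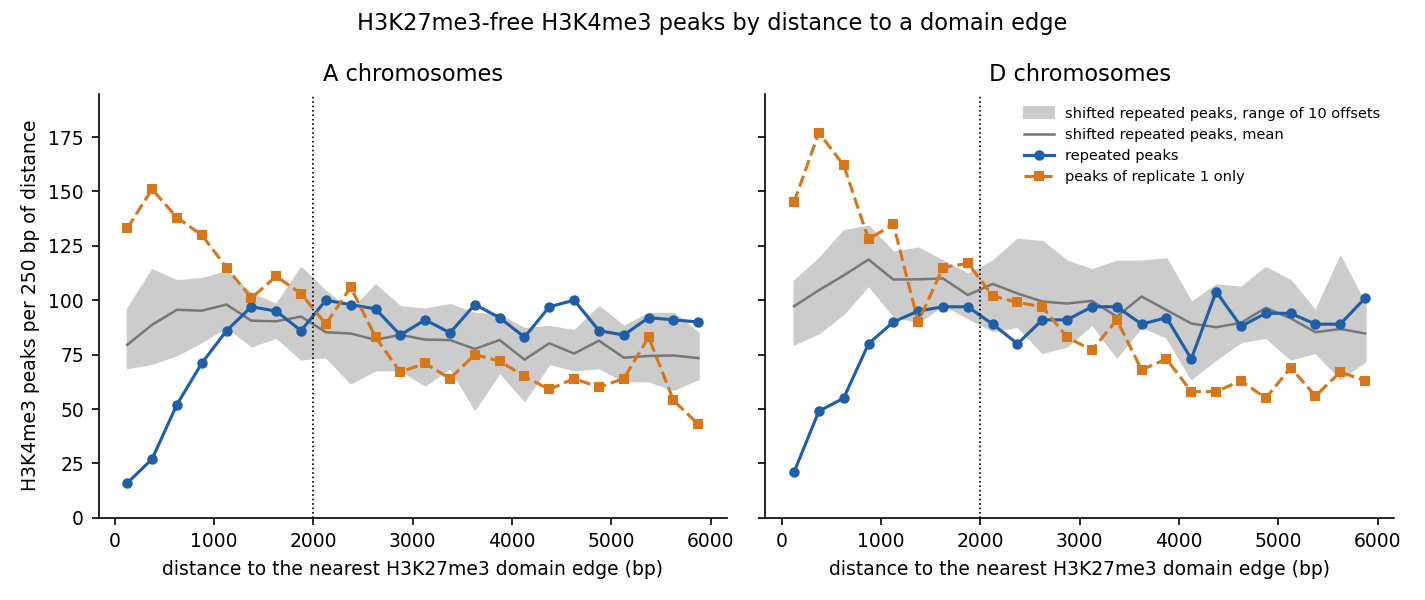
Free H3K4me3 peaks of replicate 1 per 250 bp of distance to the nearest domain edge (x axis, bp), for peaks found again in the narrow replicate 2 list, peaks of replicate 1 alone and shifted repeated peaks, in the A and D subgenomes. Repeated peaks were scarcest within 250 bp (16 in A and 21 in D), where 133 and 145 peaks of replicate 1 alone lay, and the latter were most frequent at 250 to 499 bp (151 and 177).

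The replicate 2 lists alone held the order of the repeated peaks, though no repeat was asked for there. Peaks of the narrow list lay at 568 per kb within 500 bp of an edge of the broad list, at 969 per kb at 1000 to 1999 bp and at 970 per kb at 2000 to 3999 bp. Free replicate 1 peaks taken likewise, without a repeat, did not hold it. They comprised 226 repeated and 1212 other peaks per kb within 500 bp, and 735 and 658.5 per kb at 2000 to 3999 bp. Inside domains the repeat was rarer still. Of the replicate 1 H3K4me3 peaks that overlapped a replicate 1 domain, 6.48% were found again, against 60.5% of those that overlapped none. Both shares follow the names of the replicate 2 lists, which disagree with the labels.

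The distance from a bordering peak to its domain, counted as the bases between their near ends, had a median of 1260 bp and an interquartile range of 849 to 1615 bp. The medians were 1271.5 bp in A (lowest 14 bp) and 1243 bp in D (lowest 22 bp). Each A chromosome was paired with its D namesake, which gave 13 pairs, over which the D minus A difference in the median was -5 ± 135 bp (SD), with D higher in 6 pairs, given without a test because the rule used distance. All tests on pairs are two-sided sign-flip permutation tests, and adjusted values are Benjamini-Hochberg over a family of 8 unless another family is named. Pairs of chromosomes share the same libraries and are not biological replicates. Pairing followed the chromosome number alone, and whether both members of a pair correspond along their whole length was not examined. The bordering peaks just inside the limit were on D05 at 12536212 to 12536960 (2000 bp), on A03 at 98469217 to 98470076 (1997 bp) and on D05 at 20838681 to 20839195 (1991 bp). The repeated free peaks just outside the limit, which are not bordering peaks, were on A12 at 79851985 to 79852184 (2002 bp), on A05 at 11326308 to 11326947 (2006 bp) and on D05 at 30775249 to 30775684 (2006 bp). Coordinates are 1-based and refer to the authors' TM-1 assembly.

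The nearest peaks show how close both marks came. On A07 a peak of 358 bp at 29090259 to 29090616 began 14 bp beyond a domain of 934 bp at 29089311 to 29090244. Against the broad replicate 2 list the same peak was 566 bp from an edge, so this gap was not equally narrow in both lists. On D10 a peak of 521 bp at 58872711 to 58873231 began 22 bp beyond a domain of 1250 bp at 58871439 to 58872688. Its counterpart in the narrow replicate 2 list reached 45 bases into that domain.

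Numbers of bordering peaks differed among chromosomes. A05 held the most with 84, D11 the most in D with 74, and D07 the fewest with 22. A05 also held the most repeated free peaks (2251), of which 3.73% bordered a domain. This share was highest on D10 (4.8%, 60 bordering peaks) and A10 (4.35%, 56 bordering peaks) and lowest on D07 (1.61%). The count fell below the shifted mean on 24 of 26 chromosomes, 11 of 13 in A and 13 of 13 in D. The exceptions were A03, with 43 against 40.4, and A10, with 56 against 55. On 15 chromosomes the count was below every offset. The lowest ratios were 0.346 on D07 (22 against 63.6), 0.443 on D13 (27 against 61) and 0.493 on A07 (27 against 54.8). A07 and D07, chromosomes of the same number, were thus the lowest of their subgenomes by this ratio.

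**Figure D2:**
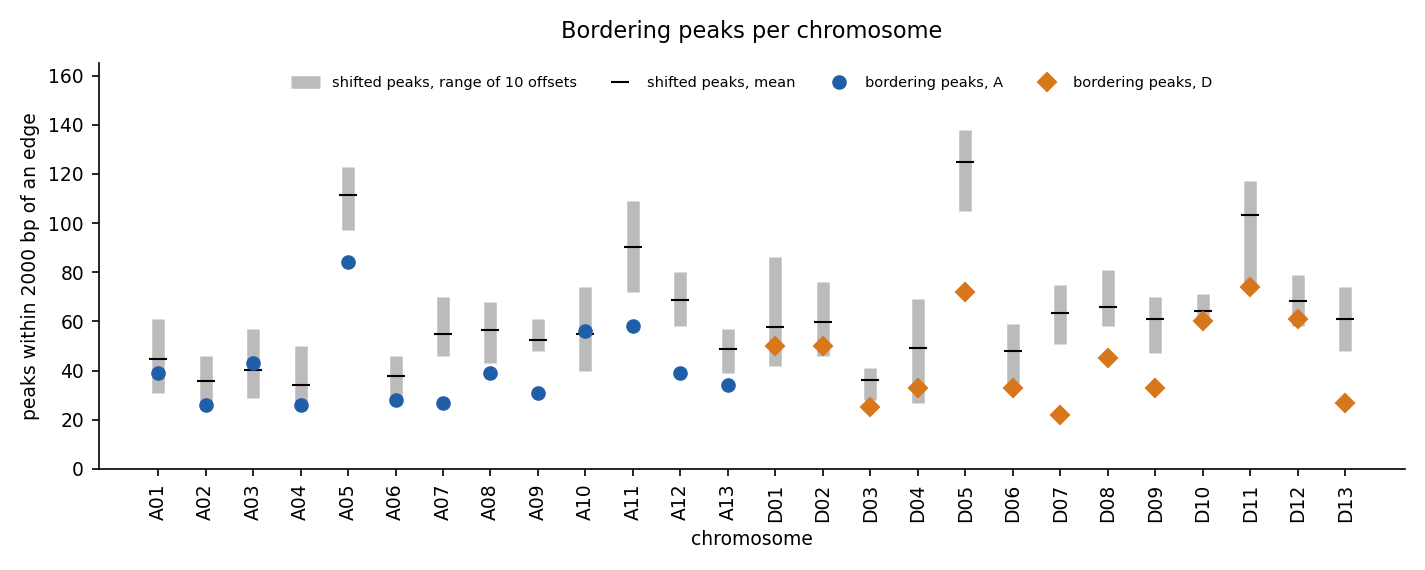
Number of bordering peaks (y axis) on each of the 26 chromosomes (x axis) as circles for A and diamonds for D, beside the range (grey bars) and mean (dashes) of the 10 shifted counts. Counts lay below the shifted mean on all chromosomes but A03 and A10, and the ratio of count to shifted mean was lowest on D07 (22 against 63.6).

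No measure of border number passed the threshold of 0.05 between the subgenomes. The log2 ratio of D to A in the number of bordering peaks was 0.13 ± 0.45 (SD, n = 13 pairs), higher in D in 9 pairs (exact sign-flip permutation test, adjusted p = 0.534). By pair this log2 ratio ran from -0.782 (pair 3) to 0.943 (pair 2). The share of repeated free peaks that bordered a domain was 0.234 ± 0.702 percentage points higher in D (8 of 13 pairs, exact test, adjusted p = 0.534). The share of domains bordered was 5.51% (5.06 to 5.99) in A and 5.01% (4.62 to 5.43) in D, and the mean over pairs of D minus A was -0.526 ± 1.38 points (4 of 13 pairs above 0, exact test, adjusted p = 0.534). With a limit of 4000 bp this last difference was -1.91 percentage points and passed (exact test, adjusted p = 0.00781). By chromosome the share ran from 2.78% on D07 to 7.74% on D12, with 3.04% on A07 and 7.66% on A03 as the extremes of A.

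Few domains were bordered at both edges, and few were bordered at all. Of 20749 domains, 1087 (5.24%) had a bordering peak, 1074 at 1 edge and 13 at both edges, 7 in A and 6 in D. Whether 13 is fewer than this low rate would give was not tested. After shifting, the mean number with both edges bordered was 25.9 (19 to 36) in A and 26.3 (21 to 32) in D. The shifted sets also held more bordered domains, with means of 712.3 against 517 in A and 846.8 against 570 in D. The share of bordered domains with both edges bordered was 1.35% in A and 1.05% in D, and D minus A over pairs was -0.574 ± 3.35 points (above 0 in 4 of 13 pairs and below 0 in 4, exact test, adjusted p = 0.661). Peaks lay above the domain, toward higher coordinates, in 599 cases and below it in 554. The peaks above or below sum to more than 1115 because 38 peaks lay between 2 domains, 18 in A and 20 in D, against shifted means of 50.8 (39 to 69) and 58.7 (45 to 68). At 53 edges there were 2 or more bordering peaks, and no domain had more than 2 in all.

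A05 and D05 carried the widest domains with both edges bordered. The A05 domain, at 12635307 to 12640807 (5501 bp), had a peak at 12633311 to 12633761, 1545 bp below, and another at 12642649 to 12643425, 1841 bp above. Inside it were 3 H3K4me3 peaks of replicate 1 that covered 12.3% of its bases, and none of the narrow replicate 2 list. The D05 domain, at 9946920 to 9955371 (8452 bp), had peaks at 9944839 to 9945550, 1369 bp below, and at 9956472 to 9956822, 1100 bp above. It held 2 replicate 1 peaks over 13.5% of its bases and again none of the narrow list. The flanking peaks were in both lists by the rule. A further replicate 1 peak beside the A05 domain, at 12634333 to 12634535, had no counterpart in the narrow list either.

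The closest pairs of domains around a single peak were on A12 and D11. The A12 peak at 55874721 to 55875323 (603 bp) lay 237 bp above the domain at 55871086 to 55874483 and 260 bp below the domain at 55875584 to 55876112. The D11 peak at 59010017 to 59010383 (367 bp) lay 408 bp above the domain at 59008822 to 59009608 and 207 bp below the domain at 59010591 to 59014200. Each is an interval of H3K4me3 with H3K27me3 on either side. On A12 H3K4me3 was not confined to that interval. The lower domain held a further replicate 1 peak at 55873978 to 55874427 (450 bp, 13.2% of the domain), and none of the narrow replicate 2 list.

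**Figure D3:**
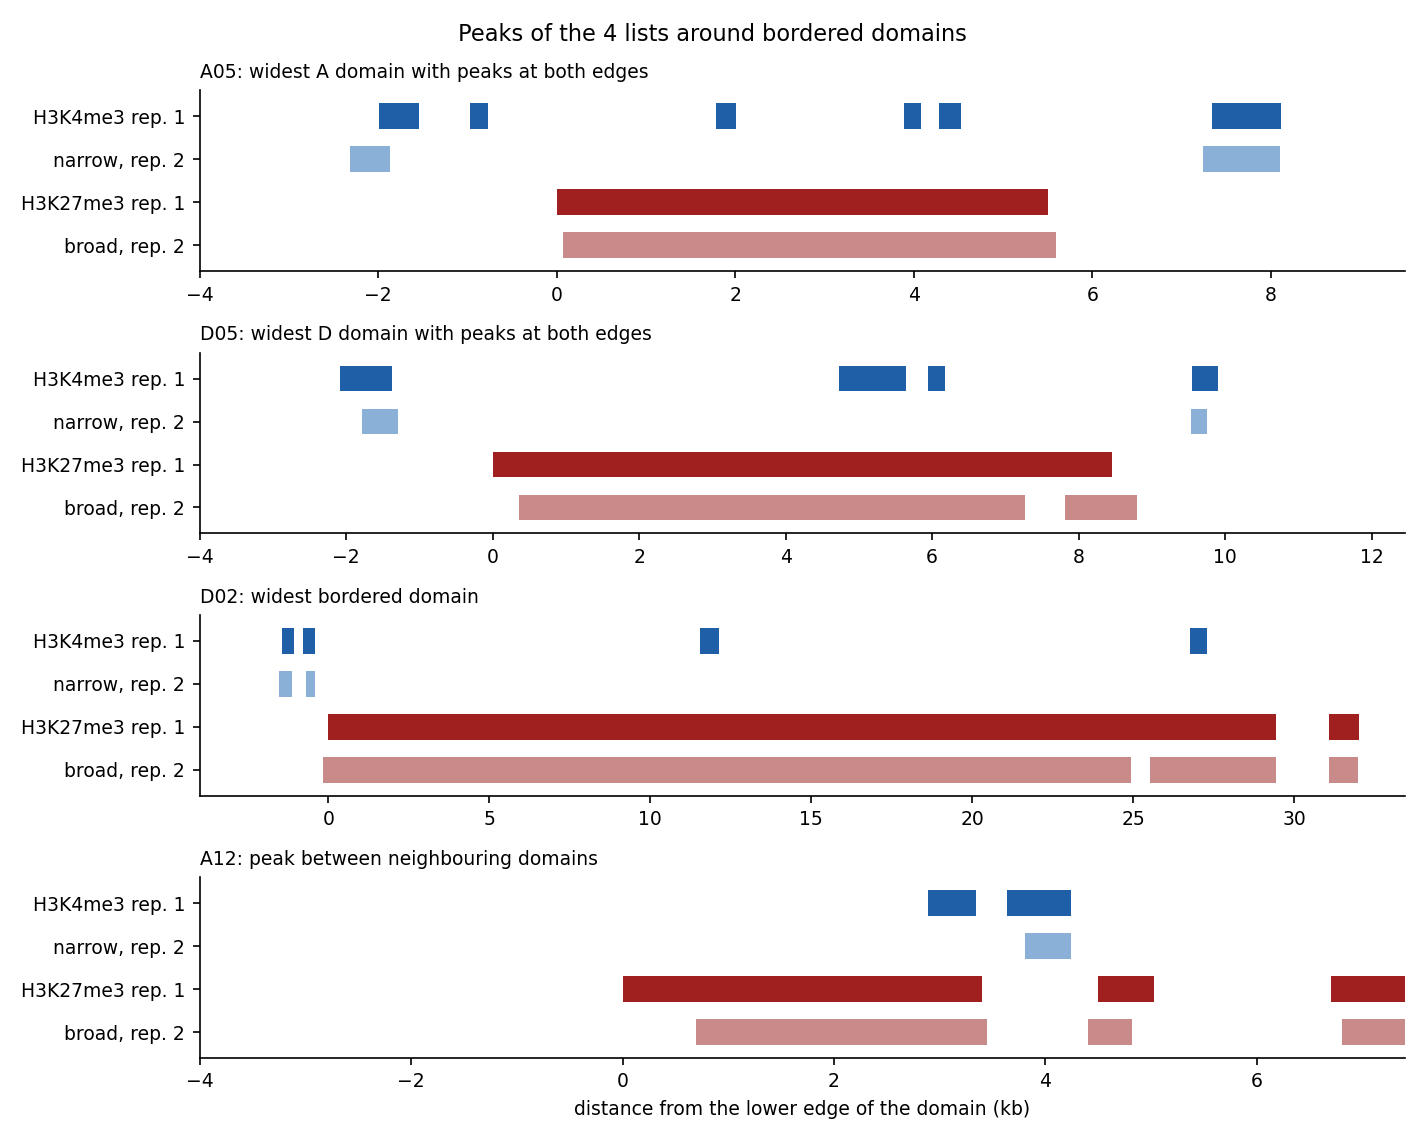
Peaks of the 4 lists, 1 row each, drawn as bars along the distance from the lower edge of the domain (x axis, kb), with bars cut at the panel ends, for the widest domains bordered at both edges (A05 and D05), the widest bordered domain (D02, 29434 bp) and the A12 peak between 2 domains. The bordering peaks appear in both lists because the rule asked for it. The H3K4me3 bars inside the A05, D05, D02 and A12 domains, as well as 1 bar beside the A05 domain, appear in replicate 1 alone.

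Bordered domains did not pass the test for a difference in width from the others. Their median width was 1398 bp in A and 1478.5 bp in D, against 1316.5 and 1433.5 bp for domains without a bordering peak. D over A, bordered width had a mean log2 ratio of -0.09 ± 0.37 across pairs, below 0 in 7 of 13 (exact test, adjusted p = 0.536), and with peaks of 500 bp or more it was -0.36 and passed (exact test, adjusted p = 0.0234). The log2 ratio of bordered to unbordered widths was 0.09 ± 0.31 over the pairs (9 of 13 higher, exact sign-flip permutation test, adjusted p = 0.534). Without the narrow replicate 2 list the ratio turned to -0.22 and passed (exact test, adjusted p = 0.0127), and by sample label it was -0.37 (exact test, adjusted p = 0.0107). Domains of 8 kb or more made up 4.23% of the bordered and 4.23% of the unbordered set, and domains of 2 kb or more made up 38.8% and 37.2%. Domains bordered at both edges had medians of 1761 bp in A (710 to 5501) and 1692 bp in D (261 to 8452). The D minus A difference in the bordered to unbordered log2 ratio was -0.216 ± 0.325, negative in 11 of 13 pairs, which did not pass after adjustment over 5 such contrasts (exact test, adjusted p = 0.181).

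**Figure D4:**
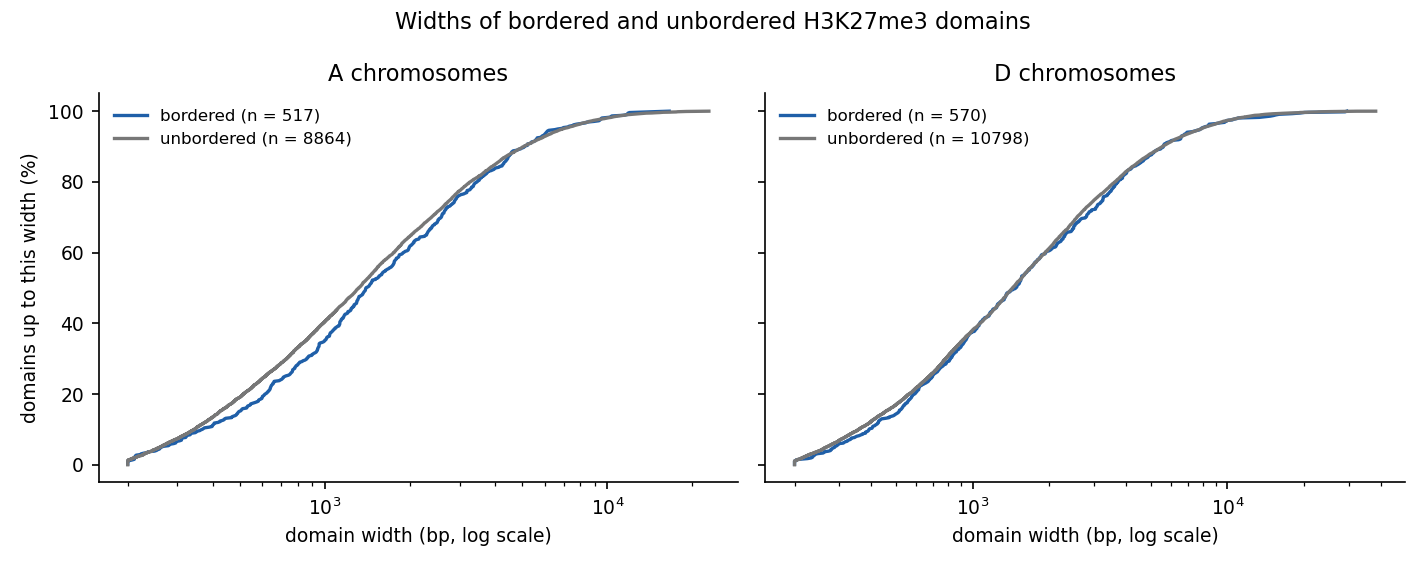
Cumulative share of H3K27me3 domains (y axis, %) up to a given width (x axis, bp, log scale), with and without a bordering peak, in the A and D subgenomes. The curves run close together, with medians of 1398 and 1316.5 bp in A and of 1478.5 and 1433.5 bp in D.

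The widest bordered domains were on A13 and D02. On A13 the domain at 6002644 to 6019187 (16544 bp) had 1 bordering peak, 296 bp wide at 6001136 to 6001431, 1212 bp below it. On D02 the domain at 66944787 to 66974220 (29434 bp) had 2, at 66943337 to 66943729 (1057 bp below) and at 66944010 to 66944360 (426 bp below). No domain had more than 2, and the broad replicate 2 list covered 97.9% of it in 2 peaks. In A the widest domain with 2 bordering peaks on the same side, on A13 at 73940560 to 73946634 (6075 bp), had them at 73947591 to 73947790 (956 bp above) and at 73948018 to 73948488 (1383 bp above). None of these 3 domains held a peak of the narrow replicate 2 list inside it. Of H3K4me3 peaks of replicate 1, the D02 domain held 2 (3.84% of its bases) and the A13 domain of 6075 bp held 1 (9.68%). The A13 domain of 16544 bp held none.

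The H3K4me3 peaks at borders did not pass the test for a difference in width from other repeated free peaks in replicate 1. Their median was 604.5 bp in A and 592 bp in D, against 606 and 618 bp, and the log2 ratio was -0.07 ± 0.11 (lower in 10 of 13 pairs, exact test, p = 0.0339, adjusted p = 0.271). The difference passed without the narrow replicate 2 list (-0.26, exact test, adjusted p = 0.00195), by sample label (-0.44, exact test, adjusted p = 0.00781) and without pair 8 (-0.09, exact test, adjusted p = 0.0469). The widest were a peak of 2272 bp on A10 at 94431658 to 94433929, 1249 bp below a domain of 597 bp, and a peak of 2445 bp on D08 at 1906426 to 1908870, 1008 bp below a domain of 2033 bp. In the narrow replicate 2 list the counterparts of bordering peaks were narrower, with medians of 500 bp against 535 bp (514.5 against 539 bp in A, 485 against 532 bp in D). That log2 ratio was -0.12 ± 0.14, lower in 12 of 13 pairs (exact test, adjusted p = 0.0168 over 3 tests chosen after the data were seen). It no longer passed for peaks of 500 bp or more (-0.11, exact test, adjusted p = 0.107) or for domains of 1000 bp or more (-0.09, exact test, adjusted p = 0.319). Widths in both lists are in part set by the rule, since near an edge a wider peak more easily touches a domain and is left out. Peaks far from any domain do not face this cut, so these tests cannot separate width from the choice of peaks. Other peaks near an edge but beyond the limit were compared for replicate 1 width alone, which did not pass (-0.04, exact test, adjusted p = 0.534).

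The rule asked for a counterpart in the narrow replicate 2 list and for no overlap with the broad list, but not for nearness to an edge of the broad list, so recovery in these lists is given as a description and is in part set by the choice of the peaks. Of the 1115 peaks, 959 (86.0%, 83.8 to 88.0) lay within 2000 bp of an edge of the broad replicate 2 list, 454 of 530 in A and 505 of 585 in D. The nearest domain was called again in 1006 cases (90.2%). Unbordered domains were called again in 91.0% of cases and bordered ones in 89.9%. For 940 peaks (84.3%) the counterpart in the narrow list also lay within 2000 bp of and outside the broad list, and in 5 it overlapped that list. Where both distances were within 2000 bp, they differed by a median of 144 bp, and the edge of the broad list was nearer in 622 of the 1115 peaks (55.8%). The distances to the edge in both lists correlated across these 959 peaks with a Spearman rho of 0.77, as a description: peaks are shared between both measures and both are cut at 2000 bp.

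**Figure D5:**
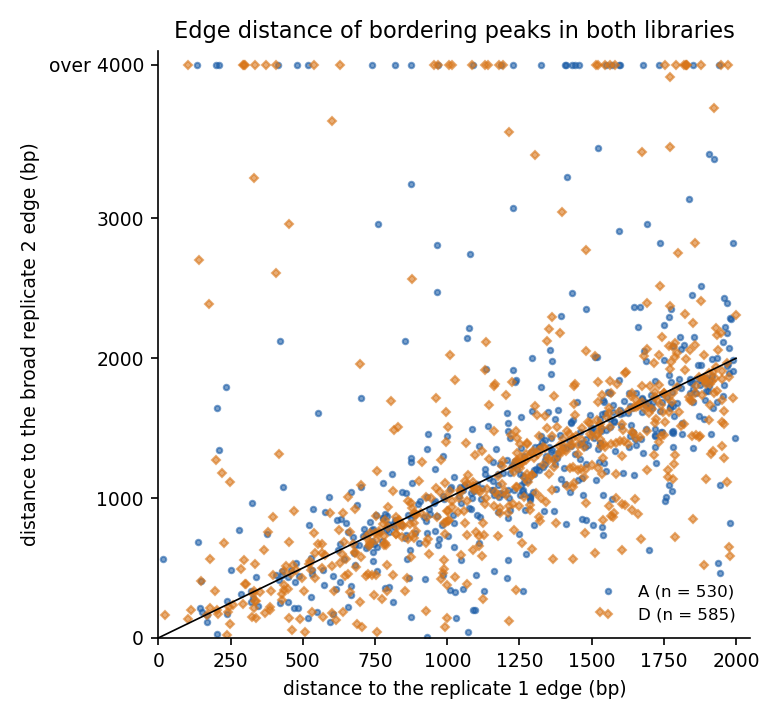
Distance of each bordering peak (circles A, diamonds D, diagonal line equal distances) to the domain edge in H3K27me3 replicate 1 (x axis, bp) against its distance to the nearest edge of the broad replicate 2 list (y axis, bp, values over 4000 bp drawn in the top row, 60 peaks). Points scatter around the diagonal, and 959 of 1115 lie within 2000 bp on both axes.

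H3K4me3 inside the domains and beyond the bordering peaks was compared last. A domain counted as holding a replicate 1 peak, repeated or not, if both shared at least 1 bp. Of the replicate 1 peaks that overlapped a domain, 6.48% were found again in the narrow replicate 2 list. Domain width was not allowed for. Such a peak was held by 41.1% of bordered (447 of 1087) and 37.3% of unbordered domains, or 39.3% against 37.6% in A and 42.8% against 37.0% in D. The paired difference was 3.93 ± 6.37 percentage points, higher in 10 of 13 pairs, and missed the threshold after adjustment over the same 3 added tests (exact test, p = 0.0459, adjusted p = 0.0688). It passed in 6 alternatives, at 2.89 to 6.05 points with exact adjusted p of 0.00195 to 0.0315, 2 of which left out pair 1 (4.70 points) or pair 9 (4.85 points), and it turned to -1.24 points by sample label (exact test, adjusted p = 0.619). On the side away from the domain, the next repeated peak was a median of 15579 bp off for bordering peaks and 14693 bp for others, a log2 ratio of -0.01 ± 0.33 (7 of 13 pairs higher, exact test, adjusted p = 0.875). By sample label, where repeated peaks are those that overlap the broad list, the ratio was -0.54, higher in 0 of 13 pairs (exact test, adjusted p = 0.000488).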

How the data were processed

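H3K4me3, H3K27me3 and input were grouped by the antibody label. Per the methods, the authors processed reads with fastp, Bowtie2, Picard and SAMtools and called peaks with MACS2, H3K4me3 in narrow and H3K27me3 in broad mode for the first replicate. How the second lists were called and whether input served as control are not given in the sources used here, nor are tool versions. The deposited files hold chromosome, start and end of each peak as the authors placed them, with no height, score or read number. The lists thus do not show read depth, and the study's read totals were not used. The test of edge distance is counted among the 8 but not given, since the rule used distance.

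Peaks were used as listed. Overlap meant at least 1 bp. Members and lists were chosen with earlier results of these data known. Shares have Clopper-Pearson 95% intervals, which treat peaks as independent. Subgenomes and sets were compared over 13 chromosome pairs with exact two-sided sign-flip permutation tests (8192 patterns, smallest p 0.000244) and a threshold of 0.05. Benjamini-Hochberg adjustment was over 8 tests, over 3 added after the data were seen, or over 5 D minus A contrasts of differences between sets. Named regions are, per subgenome, the nearest peak, the peak at the widest domain, the widest domain bordered at both edges, the domain with most bordering peaks, the widest peak and the tightest peak between 2 domains, and also the 3 peaks on either side of the limit and the extreme chromosomes.

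Alternatives covered the distance limit, omission of each list and chromosome pair, marks by sample label, overlap, width minimums, merging, scaffolds, domains found again and other offsets. Python 3.11.15, numpy 2.4.6, scipy 1.17.1 and matplotlib 3.10.9 were used, and the members were checked against bedtools 2.31.1 (0 of 1115 differed). No annotation or sequence of the authors' assembly was used, so no gene is named.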

Additional observations from a re-analysis of the deposited data

Results flagged for a closer look

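Outside the 26 chromosomes, 82 bordering peaks lay on scaffolds. The main comparisons did not use these peaks. Of them, 78 were on scaffolds whose name gives a chromosome and entered the alternative with scaffolds added. The 82 were 2.40% (1.92 to 2.97, exact Clopper-Pearson 95% interval) of the 3413 repeated free peaks on scaffolds. On the chromosomes this share was 3.08% (2.90 to 3.26).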

How the results depend on the processing

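No paired analysis was possible because the results come from peak lists with 1 library each, so same-numbered replicates give no value to pair. The log2 D to A ratio of bordering peaks kept its direction and its side of the threshold in all 25 alternatives run. With a limit of 1000 bp, 373 peaks bordered a domain, the ratio to shifted peaks was 0.471 (0.465 in A, 0.476 in D), the D to A width ratio of bordered domains was 0.0473 and the next-peak ratio (bordering over other) 0.0955 (both log2). With 4000 bp these were 2584, 0.847 (0.917, 0.788), 0.0505 and 0.0289, the D minus A differences were -0.0044 points in the share of free peaks, -1.91 in the share of domains and 0.0776 in both edges, and the difference in domains holding H3K4me3 was 3.78 points, which passed. Without the narrow replicate 2 list, 3166 peaks, ratios of 0.987, 1.08 and 0.917, and log2 width ratios of 0.0363 (D to A), -0.216 (bordered over unbordered) and -0.264 (peaks) were found. Without the broad list, 1168 peaks bordered a domain, the ratios were 0.639, 0.660 and 0.621, and the next-peak ratio 0.0117. Without replicate 1, domains holding H3K4me3 differed by 2.89 points and the next-peak ratio was 0.18. By sample label the values were 454 peaks, ratios of 0.865 in A and 0.597 in D, differences of -3.94 and 0.733 points (free peaks, both edges), 31.9 bp (distance) and -1.24 points (holding H3K4me3), and log2 ratios of 0.23, -0.37, -0.44 and -0.54 (D to A width, bordered width, peak width, next peak), of which the last 3 passed. With repeats over 50% of the peak, the D to A width ratio was 0.0371, holding H3K4me3 6.05 points (passing) and the next-peak ratio 0.0276. With peaks of 500 bp or more, 701 remained in the count, both edges differed by 0.416 points, distance by 50.2 bp, D to A width by -0.36 (adjusted p = 0.0234, exact test) and width in the narrow list by -0.11. With domains of 1000 bp or more, 733 peaks, 0.147 and -0.0857 were found for the count and the last 2 ratios. Added scaffolds gave 4.29 points for holding H3K4me3 (passing), domains found again 7.46 bp for distance, and mean widths 0.10 for the D to A width. Offsets of 5 and 10 kb gave ratios of 0.810, 0.792 and 0.826, and those of 1 and 2 Mb 0.743 overall and 0.809 in A. Leaving out each chromosome pair or list in turn gave -1.03 to 0.103 points for both edges, -36.0 to 12.9 bp for distance, -0.135 to 0.0363 for D to A width, -0.216 to 0.140 for bordered over unbordered width, -0.264 to -0.0521 for peak width (passing without pair 8 or the narrow list), 1.90 to 4.85 points for holding H3K4me3 (passing without pair 1, pair 9 or replicate 1) and -0.0641 to 0.176 for the next peak. The causes were not tested. Width in the narrow list could not be computed without replicate 1 or by sample label. The lists give no peak heights, so weak peaks could not be told from strong ones.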
